A study of Homo sapiens with 6 samples.

Results

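The genes described are 5 beta-tubulins (TUBB4B, TUBB, TUBB2A, TUBB3 and TUBB6), 3 alpha-tubulins (TUBA1A, TUBA1B and TUBA1C) and the end-binding proteins EB1 and EB3, encoded by MAPRE1 and MAPRE3. They were taken by gene name, and all 10 names were found among the 48644 gene rows of the deposited table. The genes were chosen by name with their levels at day 4 and day 0 in these same libraries known, so levels, changes and p-values are a description and nothing rests on them as a test. The libraries are of poly(A) RNA from the established esophageal squamous carcinoma line KYSE70, of human origin, with stable pLKO-Tet-On-shTP63 or pLKO-Tet-On-shSOX2, a doxycycline-inducible hairpin against the squamous transcription factor TP63 or SOX2. Each line had 2 libraries after 4 days of doxycycline at 50 ng/ml (day 4) and 1 untreated library (day 0), 6 libraries in all. The labels do not say whether a line is a clone or a pool. No doxycycline-treated cells without one of these hairpins were analysed here, so the hairpin, the drug and the days in culture cannot be told apart.

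Alpha- and beta-tubulin form the dimer from which microtubules polymerise, and a cell draws on several isotype genes for each. The isotypes differ mainly in the acidic tail at the end of the protein, which lies on the outside of the microtubule and is the site of many modifications. Free tubulin dimers also trigger decay of tubulin mRNAs, which ties the level of these mRNAs to the state of the microtubules. End-binding proteins ride on growing plus ends and recruit other proteins there; EB1 is widespread, and EB3 is best known from neurons and muscle.

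The tails are a part in which the beta isotypes differ. The last 60 coding bases of 4 beta-tubulin transcripts are shown, from the GENCODE transcripts, with the stop codon in capitals.
TUBB4B: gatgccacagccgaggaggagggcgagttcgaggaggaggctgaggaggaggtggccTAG
TUBB: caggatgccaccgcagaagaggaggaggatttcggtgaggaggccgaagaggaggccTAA
TUBB2A: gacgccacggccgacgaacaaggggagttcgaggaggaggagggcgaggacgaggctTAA
TUBB6: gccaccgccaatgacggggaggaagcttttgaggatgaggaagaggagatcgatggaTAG

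The beta isotypes differ in this stretch, whereas TUBA1A and TUBA1B have the same last 60 coding bases. Over whole coding sequences the alpha members are 95.9% to 97.2% identical, and the beta members 80.9% to 87.7%. Of the 50-base windows of each transcript, 65.5% in TUBB2A, 62.7% in TUBA1B, 41.1% in TUBA1A and 25.1% in TUBA1C also occur in a transcript of another gene. TUBB2A shares 60.3% of its windows with TUBB2B, and TUBA1B shares 38.6% with TUBA1A and 37.2% with TUBA1C. The share is 18.2% for TUBB, mostly with its pseudogene TUBBP1, 9.89% for TUBB4B, 0.993% for TUBB6, 0.777% for MAPRE1 and 0% for MAPRE3. The sources used here do not state the read length or how reads with several matches were handled, so single alpha isotypes and TUBB2A are uncertain, and TUBB6, MAPRE1 and MAPRE3 are the members least open to shared reads. TUBB3 overlaps a read-through transcript that holds 89.4% of its windows.

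**Figure D1:**
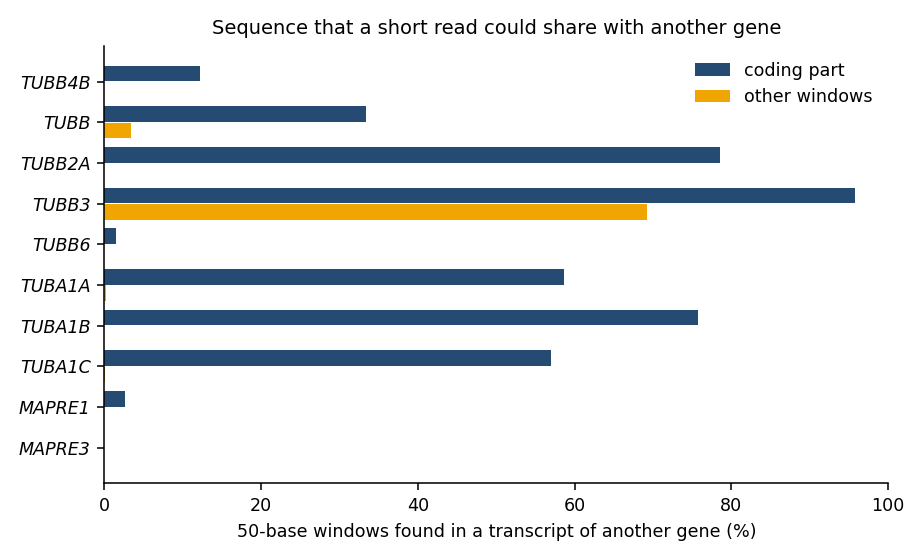
Percentage of 50-base windows of each member's transcript that also occur in a transcript of another gene, for windows within the coding part (dark) and for the other windows (orange). Sharing is confined almost wholly to the coding part, except in TUBB3 (69.2% of its other windows), and TUBB2A and TUBA1B share most (78.5% and 75.7% of coding windows), TUBB3 with its read-through transcript aside.

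Levels are log2(RPKM + 1) values, where RPKM scales reads by gene length and library size, and base 2 was assumed. Values above 0 were listed for 16167 genes in shTP63 cells at day 0, fewer than the 21530 to 23509 of any other library. That library is the only one of its group, so every shTP63 change rests on it. Changes against the other day 0 library are given beside the member results they alter. Counts in the related lists were made against each line's own day 0 library only, and can differ against the other. TP63 stood at 2.11 and 2.26 in the induced shTP63 libraries, against 3.99 at day 0 (log2 change -1.81 ± 0.32). SOX2 stood at 4.67 and 5.65 in the induced shSOX2 libraries, against 6.25 at day 0 (log2 change -1.10 ± 0.45). In the shTP63 line SOX2 stood at 5.41 and 5.55 at day 4 and at 5.69 at day 0. Induced shSOX2 replicate 2, at 5.65, was thus within the range of cells without a SOX2 hairpin. All 10 squamous epithelial markers were tested and summed to 1164 and 2602 RPKM in induced shTP63 cells, against 3059 RPKM at day 0, and to 1130 and 727 RPKM in induced shSOX2 cells, against 1919 RPKM at day 0. At the ends of that list, the keratin gene KRT6A had log2 changes of -3.15 ± 0.50 in the shTP63 line and -2.73 ± 0.50 in the shSOX2 line, and the keratin gene KRT13 of 0.77 ± 0.40 in the shTP63 line and 0.96 ± 0.40 in the shSOX2 line. The 11 leukocyte, endothelial and fibroblast markers in the table summed to 5.09 and 6.25 RPKM in induced shTP63 cells, against 2.20 RPKM at day 0, and to 3.27 and 3.36 RPKM in induced shSOX2 cells, against 2.04 RPKM at day 0. CD3E and COL1A2 were listed at 0 in all 6 libraries, and the only one of these markers tested, the collagen gene COL1A1, was higher in all 4 induced libraries (log2 change 1.02 ± 0.30 in the shTP63 line and 0.46 ± 0.30 in the shSOX2 line). The part of these markers in the members' values was not tested.

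The beta-tubulins that make up most of the beta mRNA were lower at day 4 in both lines, TUBB4B more so than TUBB on this scale. TUBB4B, an isotype of most tissues, stood at 6.28 and 6.45 in induced shTP63 replicates 1 and 2, against 7.83 at day 0. In induced shSOX2 replicates 1 and 2 it stood at 6.04 and 6.15, against 7.52 at day 0. All 4 induced libraries were thus below both uninduced ones, and replicates differed far less than days. The log2 change of TUBB4B was -1.47 ± 0.33 in the shTP63 line and -1.43 ± 0.33 in the shSOX2 line (limma SE, day 4 n = 2, day 0 n = 1 in each line). TUBB, also widely expressed, stood at 6.70 and 6.55 after TP63 hairpin induction, against 7.53 at day 0, and at 6.67 and 6.93 after SOX2 hairpin induction, against 7.61 at day 0. Its groups did not overlap either, and its log2 changes were -0.90 ± 0.33 in the shTP63 line and -0.81 ± 0.33 in the shSOX2 line.

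TUBB2A had the widest range of all members, 2.56 log2 units over the 6 libraries. It stood at 3.45 and 4.13 in induced shTP63 cells, against 5.06 at day 0, and at 2.49 and 3.21 in induced shSOX2 cells, against 4.89 at day 0. Again no induced library reached an uninduced one, but the day 4 replicates of TUBB2A lay 0.67 apart in the shTP63 line and 0.71 apart in the shSOX2 line. The log2 change was -1.27 ± 0.45 in the shTP63 line and -2.04 ± 0.45 in the shSOX2 line, and only 8 of the 10536 tested genes had a lower change in the shSOX2 line. Its neighbour in sequence, TUBB2B, which is not a member, stood at 2.38 and 3.24 in induced shTP63 cells, against 3.68 at day 0, and at 1.68 and 2.00 in induced shSOX2 cells, against 3.36 at day 0. Since the pair can share reads, their sum is given too. It came to 14.2 and 24.9 RPKM in induced shTP63 replicates 1 and 2, against 44.1 RPKM at day 0. In induced shSOX2 replicates 1 and 2 it came to 6.85 and 11.2 RPKM, against 37.9 RPKM at day 0.

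TUBB6, a minor isotype with little shared sequence, was at 3.64 and 4.19 in induced shTP63 cells, against 4.59 at day 0, and at 3.00 and 3.57 in induced shSOX2 cells, against 3.98 at day 0. Each line's day 4 libraries were below its day 0 library, but induced shTP63 replicate 2 was above the uninduced shSOX2 library, so the groups overlap across lines. Its log2 change was -0.67 ± 0.41 in the shTP63 line, or -0.07 against the day 0 library of the shSOX2 line, and -0.70 ± 0.41 in the shSOX2 line, or -1.30 against the day 0 library of the shTP63 line. TUBB3, the isotype of neurons, was listed at 0 in all 3 shTP63 libraries and was at 0.08 and 0.11 in induced shSOX2 cells, against 0.17 at day 0. It did not reach the mean of 1 RPKM required for testing, so 9 of the 10 members were tested.

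**Figure D2:**
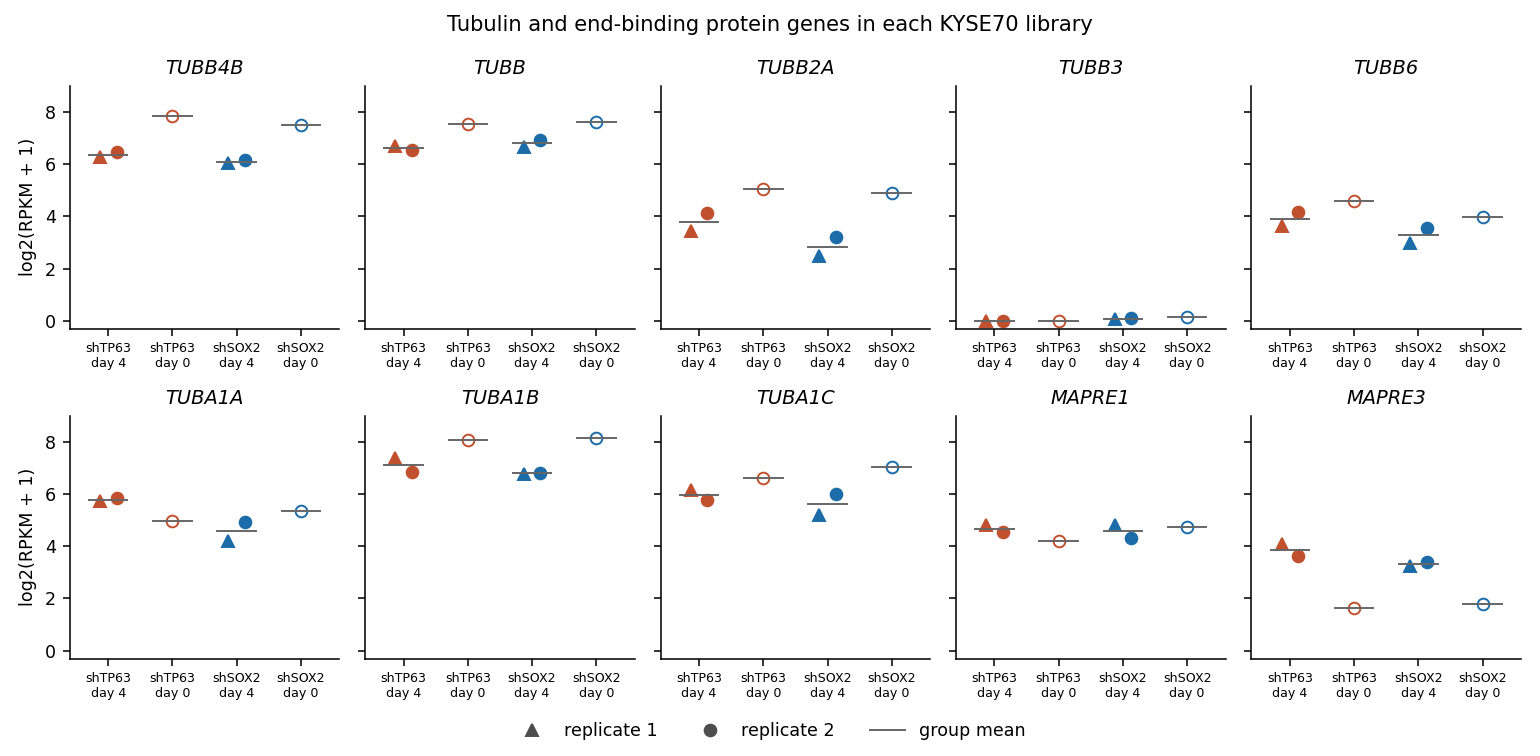
Level of each member in each library, as log2(RPKM + 1), for shTP63 (red) and shSOX2 (blue) cells at day 4 (filled) and day 0 (open); triangles are replicate 1, circles replicate 2 and bars group means. TUBB4B, TUBB, TUBB2A, TUBA1B and TUBA1C are lower in all 4 induced libraries than in both uninduced ones, MAPRE3 is higher in all 4, and TUBA1A differs in direction between the lines.

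Of the alpha-tubulins, TUBA1B and TUBA1C were lower at day 4 in both lines and TUBA1A was lower in the shSOX2 line only. TUBA1B, the most abundant member in 5 of the 6 libraries, stood at 7.37 and 6.84 in induced shTP63 cells, against 8.07 at day 0, and at 6.75 and 6.82 in induced shSOX2 cells, against 8.16 at day 0. The log2 change of TUBA1B was -0.97 ± 0.35 in the shTP63 line and -1.37 ± 0.35 in the shSOX2 line. TUBA1C stood at 6.14 and 5.78 in induced shTP63 cells, against 6.62 at day 0, and at 5.21 and 6.01 in induced shSOX2 cells, against 7.02 at day 0. Neither gene's induced libraries overlapped the uninduced ones. For TUBA1C the log2 change was -0.65 ± 0.43 in the shTP63 line, or -1.06 against the other line's day 0 library, and -1.41 ± 0.43 in the shSOX2 line, or -1.01 against the other day 0 library. In the shSOX2 line the replicates of TUBA1C were 0.81 apart, the widest gap of any tested member.

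TUBA1A, an isotype prominent in neurons, was at 5.72 and 5.85 in induced shTP63 cells, against 4.95 at day 0. In induced shSOX2 cells it was at 4.20 and 4.94, against 5.34 at day 0. Both induced shTP63 libraries were therefore above, and both induced shSOX2 libraries below, their own day 0 library. The log2 change was 0.83 ± 0.41 in the shTP63 line, or 0.45 against the other line's day 0 library, and -0.76 ± 0.41 in the shSOX2 line, or -0.38 against the other day 0 library. The shTP63 response minus the shSOX2 response of TUBA1A was 1.59 ± 0.58 on the log2 scale and did not pass over all genes (limma adjusted p = 0.995, unadjusted p = 0.0261). Between the induced lines TUBA1A was 1.21 ± 0.33 log2 units higher in shTP63 than in shSOX2 cells, which did not pass either (limma adjusted p = 0.114).

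The end-binding genes differed from each other and from the tubulins. MAPRE3 stood at 4.08 and 3.61 in induced shTP63 cells, against 1.65 at day 0, and at 3.26 and 3.40 in induced shSOX2 cells, against 1.77 at day 0. On the linear scale that is 15.9 and 11.2 RPKM in induced shTP63 cells, against 2.13 RPKM at day 0, and 8.56 and 9.54 RPKM in induced shSOX2 cells, against 2.41 RPKM at day 0. Each induced library was far above both uninduced ones. The log2 change of MAPRE3 was 2.20 ± 0.35 in the shTP63 line and 1.56 ± 0.35 in the shSOX2 line, and 99.7% and 99.0% of tested genes had a lower change in these lines. In the shTP63 line it passed in limma when set against both day 0 libraries together (2.14, adjusted p = 0.0116) and when day 4 replicate 2 of that line was left out (2.44, adjusted p = 0.0348), and not otherwise, with adjusted p from 0.0116 to 0.409 over 14 alternatives.

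MAPRE1 stood at 4.80 and 4.53 in induced shTP63 cells, against 4.20 at day 0, and at 4.83 and 4.33 in induced shSOX2 cells, against 4.75 at day 0. The values overlap, and the log2 changes of 0.47 ± 0.38 in the shTP63 line and -0.16 ± 0.38 in the shSOX2 line turned sign against the other line's day 0 library (-0.08 and 0.38). The ratio of MAPRE3 to MAPRE1 RPKM was 0.592 and 0.506 in induced shTP63 cells, against 0.122 at day 0, and 0.311 and 0.497 in induced shSOX2 cells, against 0.0932 at day 0. MAPRE2, which encodes the remaining end-binding protein, EB2, had a log2 change of 0.24 ± 0.30 in the shTP63 line and -0.48 ± 0.30 in the shSOX2 line.

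**Figure D3:**
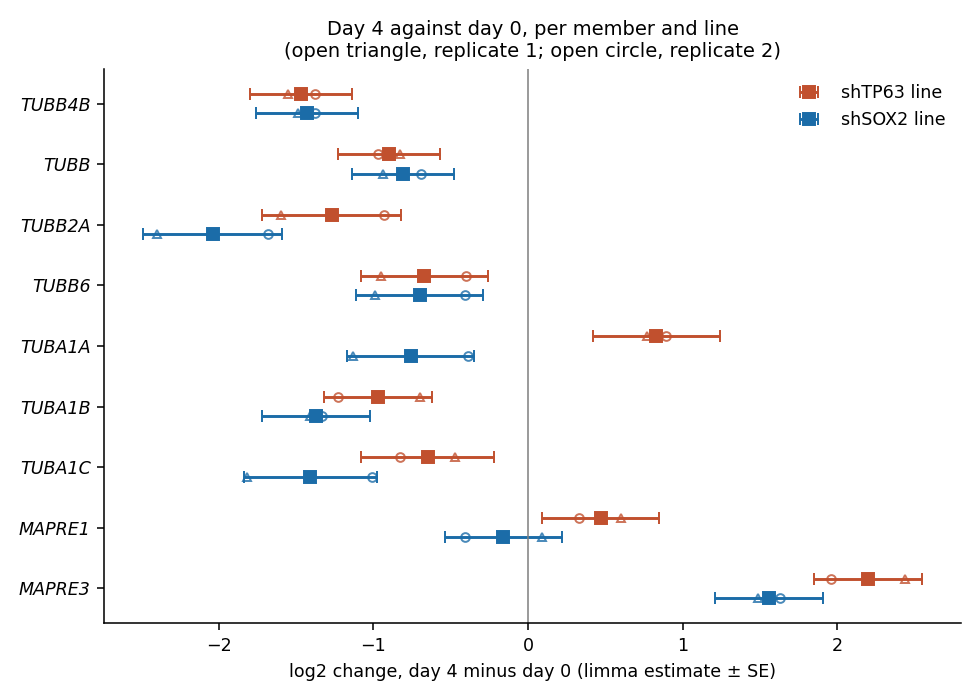
Log2 change from day 0 to day 4 of the 9 tested members in the shTP63 line (red) and the shSOX2 line (blue); squares and bars are limma estimates ± SE, and open symbols the single day 4 libraries. TUBB4B, TUBB, TUBB2A, TUBB6, TUBA1B and TUBA1C lie below 0 in both lines, MAPRE3 lies above it (2.20 and 1.56), and TUBA1A lies on either side (0.83 and -0.76).

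By position alone, 6 of the 9 tested members in the shTP63 line were lower in both day 4 libraries than at day 0, as were 38.5% of all tested genes, and 7 of 9 in the shSOX2 line, as were 40.2% of all tested genes. In the shTP63 line 3 were higher in both (all tested genes 37.9%), and in the shSOX2 line 1 was (33.3%). Against the other line's day 0 library, 5 members were lower and 2 higher in the shTP63 line, and 7 lower and 2 higher in the shSOX2 line. The shares of all tested genes against the other line's day 0 library were not counted, so these member counts cannot be set beside a background. All 4 induced libraries were below both uninduced ones for 5 members (all tested genes 14.2%) and above them for 1 (11.5%). The median log2 change of the members was -0.67 in the shTP63 line, against 0.00 over all tested genes, and -0.81 in the shSOX2 line, against -0.05 over all tested genes. Limma with Benjamini-Hochberg adjustment over all tested genes called 0 members in any contrast. It called 0.0190% of genes for TP63 hairpin induction, 0% for SOX2 hairpin induction, 0% for the difference between the responses and 0.759% between the induced lines. Members' adjusted p ran from 0.116 to 0.612 in the shTP63 line and from 0.323 to 0.898 in the shSOX2 line, and 5 members in the shTP63 line and 6 in the shSOX2 line had an unadjusted p under 0.05, against 1535 and 1094 of all tested genes. The labels do not say that replicates were separate cultures, so limma's errors measure only the spread between these libraries.

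Because paralogs can share reads, summed levels are given too. A sum keeps reads that were assigned to one member instead of another. It still depends on that split, because RPKM divides by gene length and the members' transcripts differ in length (TUBA1B 1627 bases, TUBA1C 3001 bases). Reads that were dropped, counted more than once or shared with genes outside the sum, such as TUBB2B, would affect it too. The beta members summed to 201 and 213 RPKM in induced shTP63 replicates 1 and 2, against 466 RPKM at day 0, and to 177 and 210 RPKM in induced shSOX2 replicates 1 and 2, against 421 RPKM at day 0. The induced sums were 0.431 and 0.458 times the day 0 sum in the shTP63 line and 0.421 and 0.498 times in the shSOX2 line. The alpha members summed to 286 and 224 RPKM in induced shTP63 cells, against 395 RPKM at day 0, and to 160 and 205 RPKM in induced shSOX2 cells, against 453 RPKM at day 0. Those alpha sums were 0.723 and 0.567 times day 0 in the shTP63 line and 0.353 and 0.454 times in the shSOX2 line. Alpha and beta sums were thus lower in every induced library. Against each line's own day 0 library the alpha sum was lower by less in the shTP63 line. Set against the other line's day 0 alpha sum, the ratios of the lines would overlap, so this difference rests on the single day 0 libraries. These are ratios of relative levels, so less tubulin RNA per cell and more RNA of other genes cannot be told apart.

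Within the sums the isotypes did not move alike. TUBB4B made up 38.2% and 40.7% of the beta sum in induced shTP63 cells, against 48.8% at day 0, and 36.4% and 33.3% in induced shSOX2 cells, against 43.4% at day 0. TUBB, which was lower by less, took 51.1% and 43.6% in induced shTP63 cells, against 39.4% at day 0, and 57.0% and 57.5% in induced shSOX2 cells, against 46.2% at day 0. The TUBB share of induced shTP63 replicate 2, 43.6%, was thus below that of the uninduced shSOX2 library. TUBA1A made up 18.2% and 25.3% of the alpha sum in induced shTP63 cells, against 7.60% at day 0, and 10.9% and 14.5% in induced shSOX2 cells, against 8.70% at day 0. The share of TUBA1A was thus higher in all 4 induced libraries, even in the line in which its level was lower.

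**Figure D4:**
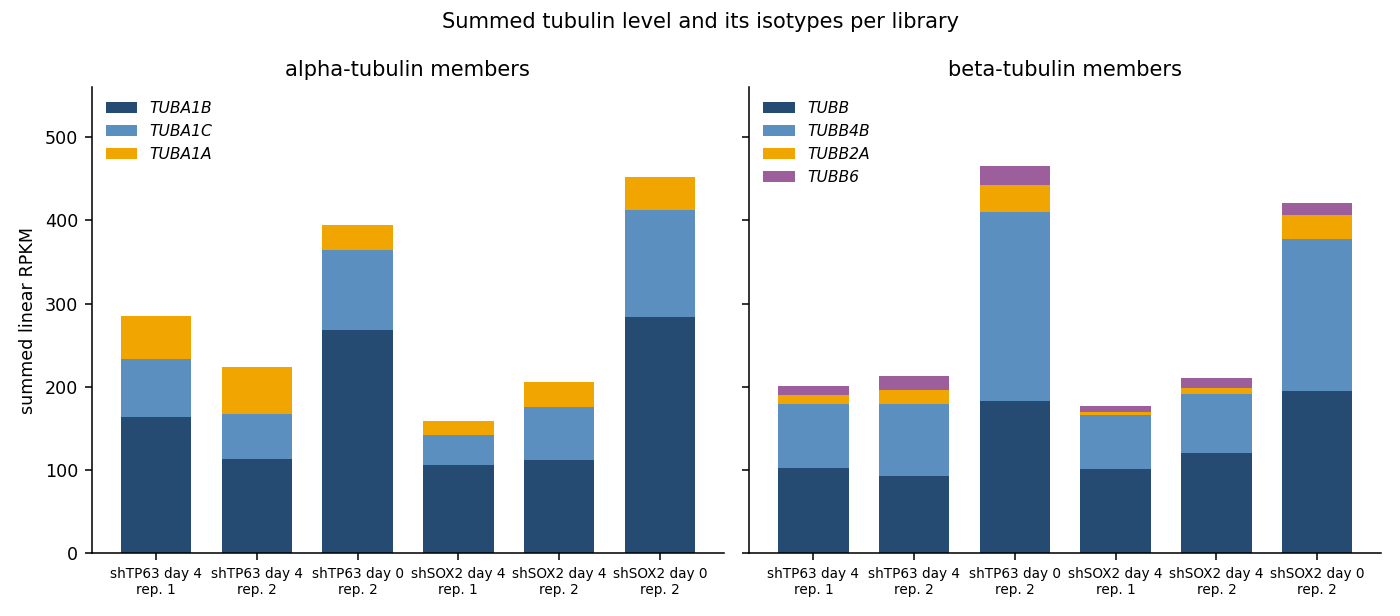
Summed linear RPKM of the alpha members (left) and beta members (right) in each library, stacked by isotype; TUBB3, at most 0.127 RPKM, is not drawn. Both sums are lower in the 4 induced libraries, and TUBA1A (orange, left) is largest in the induced shTP63 libraries.

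At day 0 TUBA1B, TUBB4B and TUBB led, within 0.54 log2 units of each other in the shTP63 line and 0.63 in the shSOX2 line, which is less than the widest gap of 0.81 between day 4 replicates of a member. TUBA1C came next, at 6.62 in uninduced shTP63 cells and 7.02 in uninduced shSOX2 cells, and MAPRE3 and TUBB3 were last. At day 4 TUBB stood above TUBB4B in all 4 induced libraries, as it did in the uninduced shSOX2 library but not in the uninduced shTP63 library. MAPRE3 stood above TUBB2A in 3 of the 4 induced libraries, whereas it was below it in both uninduced ones.

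Between the induced lines 6 of the 9 tested members were higher in both shTP63 than in both shSOX2 libraries (all tested genes 30.5%) and 0 were lower (26.6%). The largest difference after TUBA1A was that of TUBB2A, 0.94 ± 0.37 log2 units higher in induced shTP63 than in induced shSOX2 cells. For TUBB4B it was 0.28 ± 0.27, for TUBB -0.18 ± 0.27, for TUBB6 0.63 ± 0.34 and for MAPRE3 0.52 ± 0.28. None passed (limma adjusted p from 0.114 to 0.889), and the responses of the other members differed between lines by -0.09 to 0.77 log2 units with adjusted p of at least 0.995.

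The promoters of 3 members are shown, for the most lowered abundant isotype, the isotype with the widest range and the member that was higher at day 4. Each is the 120 bases before the RefSeq gene start (GRCh38.p14), with the CCAAT box (CCAAT or ATTGG) and the TATA box (TATAAA or TTTATA) in capitals; the stretch of MAPRE3 holds neither.
TUBB4B, chr9:137241167-137241286, plus strand: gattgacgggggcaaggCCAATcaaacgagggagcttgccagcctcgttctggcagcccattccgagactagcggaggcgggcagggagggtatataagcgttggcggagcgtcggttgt
TUBB2A, chr6:3157545-3157664, minus strand: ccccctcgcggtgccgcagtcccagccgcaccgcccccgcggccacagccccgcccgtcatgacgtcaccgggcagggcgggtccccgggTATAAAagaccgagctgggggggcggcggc
MAPRE3, chr2:26970517-26970636, plus strand: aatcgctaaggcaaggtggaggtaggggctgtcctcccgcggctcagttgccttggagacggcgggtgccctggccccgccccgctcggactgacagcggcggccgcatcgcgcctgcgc

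In the 250 bases before the start, on either strand, the CCAAT box was found in 5 of 10 members (TUBB4B, TUBB, TUBA1A, TUBA1C and MAPRE1) and in 32.0% of 35116 promoters. TUBB4B held 3 of them, the nearest beginning 103 bases before the start. The cell cycle element TTTGAA or TTCAAA was found in TUBB4B and TUBA1C and in 13.3% of promoters. The exact letters TATAAA or TTTATA were found in TUBB2A and MAPRE1 and in 10.7%. Other forms of the TATA box were not searched for. The SOX core ACAATG or CATTGT was found in TUBA1C alone and in 9.29% of promoters. The GC box GGGCGG or CCGCCC was found in 5 members (TUBB, TUBB2A, TUBA1B, MAPRE1 and MAPRE3) and in 42.6% of promoters. TUBB6 and TUBB3 held none of these motifs, which says only that those letters are not in the window.

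The remaining alpha- and beta-tubulins with a mean of at least 1 RPKM, TUBB2B and TUBA4A, were both lower in all 4 induced libraries, with log2 changes of -0.87 ± 0.42 and -0.82 ± 0.40 in the shTP63 line and -1.52 ± 0.42 and -1.14 ± 0.40 in the shSOX2 line. The 3 tested gamma, delta and epsilon tubulins had medians of -0.64 in the shTP63 line and 0.16 in the shSOX2 line. TUBG1, a gamma-tubulin that nucleates microtubules, stood at 4.44 and 3.75 in induced shTP63 cells, against 5.42 at day 0. In induced shSOX2 cells it stood at 4.15 and 4.20, against 4.94 at day 0. Its log2 change was -1.33 ± 0.40 in the shTP63 line and -0.77 ± 0.40 in the shSOX2 line. For the gamma-tubulin gene TUBG2 the changes were 0.03 ± 0.40 in the shTP63 line and 0.16 ± 0.40 in the shSOX2 line. For TUBE1 they were -0.64 ± 0.27 in the shTP63 line and 0.43 ± 0.27 in the shSOX2 line. The 10 tested genes of the gamma-tubulin ring complex, which seeds microtubules, had medians of -0.13 in the shTP63 line and -0.16 in the shSOX2 line. The 6 tubulin folding cofactors, which assemble the dimer, had medians of 0.04 in the shTP63 line and -0.31 in the shSOX2 line.

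Among 19 other plus-end tracking genes the medians were -0.12 in the shTP63 line and -0.18 in the shSOX2 line. All 4 induced libraries were below both uninduced ones for 3 of these genes (all tested genes 14.2%) and above them for 1 (11.5%), the linker gene CLIP4. CLIP4 stood at 2.21 and 2.38 in induced shTP63 cells, against 1.30 at day 0. In induced shSOX2 cells it stood at 1.76 and 2.09, against 1.21 at day 0. Log2 changes ran from -1.21 ± 0.56 (KIF18B) to 1.00 ± 0.31 (CLIP4) in the shTP63 line. In the shSOX2 line they ran from -0.55 ± 0.47 (TACC3) to 0.95 ± 0.36 (CLIP2). The 9 destabilising and severing genes had a median of -0.79 in the shTP63 line and -0.06 in the shSOX2 line. The 13 lattice-binding genes had medians of -0.17 in the shTP63 line and -0.18 in the shSOX2 line. Their log2 changes ran from -0.90 ± 0.46 (PRC1) to 1.30 ± 0.47 (MAP1A) in the shTP63 line. In the shSOX2 line the range was from -0.83 ± 0.41 (MAP1B) to 0.41 ± 0.50 (EML2). MAP1A, a lattice-binding protein known from neurons, was at 2.40 and 3.19 in induced shTP63 cells, against 1.50 at day 0, and at 0.59 and 1.49 in induced shSOX2 cells, against 1.52 at day 0. The 11 tubulin modifying enzymes had medians of 0.18 in the shTP63 line, where 9 of 11 were higher in both day 4 libraries (all tested genes 37.9%), and 0.04 in the shSOX2 line, where 4 of 11 were (all tested genes 33.3%). The count of 9 rests on the shTP63 day 0 library. Most of these 9 were not higher in both against uninduced shSOX2 cells. VASH1, at 1.12 and 1.35 in induced shTP63 cells and 0.53 at day 0, stood at 1.61 there. TTLL1, at 1.56 and 1.29 in induced shTP63 cells, stood at 0.78 there. Limma called 0 genes of these lists in either line. TTC5 and SCAPER, which take part in the decay of tubulin mRNA, did not reach the mean required for testing.

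**Figure D5:**
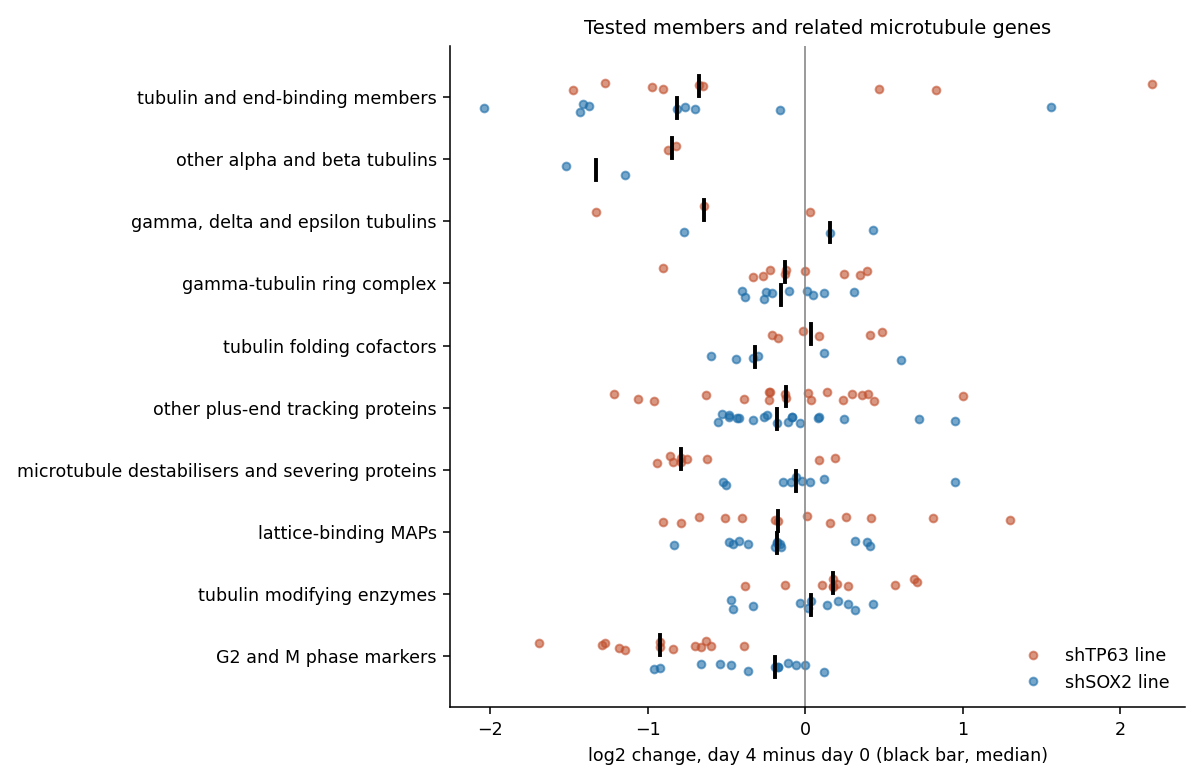
Log2 change from day 0 to day 4 of the tested members and of the tested genes of each related list, in the shTP63 line (red) and the shSOX2 line (blue), with black bars at the medians. All alpha- and beta-tubulins except TUBA1A in the shTP63 line lie below 0, and the median of the G2 and M phase markers is -0.92 in the shTP63 line and -0.19 in the shSOX2 line, a difference that was not tested. For single libraries that median is -0.22 and -1.53 in shTP63 replicates 1 and 2, and -0.28 and -0.23 in shSOX2 replicates 1 and 2.

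Of 13 G2 and M phase markers, 12 were lower in both day 4 libraries in the shTP63 line (all tested genes 38.5%) and 10 in the shSOX2 line (all tested genes 40.2%), with medians of -0.92 in the shTP63 line and -0.19 in the shSOX2 line, and limma called 0 in either. By library the median was -0.22 in shTP63 replicate 1 and -1.53 in shTP63 replicate 2. In shSOX2 replicates 1 and 2 it was -0.28 and -0.23, so the lines differed through shTP63 replicate 2. The 13 G2 and M phase markers summed to 157 and 58.0 RPKM in induced shTP63 replicates 1 and 2, against 229 RPKM at day 0, and to 218 and 219 RPKM in induced shSOX2 replicates 1 and 2, against 307 RPKM at day 0. The lowest sum, in induced shTP63 replicate 2, stood beside a beta sum of 213 RPKM, the highest of the 4 induced libraries, while the alpha sum of that library, 224 RPKM, was between those of the others. The part of cell division in the tubulin values was not tested.

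By Pearson's r over the 6 libraries, the genes most like TUBB2A were PRKAR2A (0.995), a regulatory subunit of protein kinase A, CCDC101 (0.991), PFKP (0.991), the platelet-type phosphofructokinase of glycolysis, PREX1 (0.987), a Rac exchange factor, and EIF4G2 (0.986), a translation factor. PRKAR2A stood at 1.94 and 2.11 in induced shTP63 cells, against 2.51 at day 0, and at 1.54 and 1.80 in induced shSOX2 cells, against 2.51 at day 0. TUBB2B had an r of 0.97, TUBB4B of 0.93 and TUBB6 of 0.92 with TUBB2A, and 1.90% of tested genes were above 0.9. With 6 libraries that share day and line, such values describe a profile only.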

How the data were processed

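The deposited table gives 1 value per gene and library. Its name says RPKM, but the values, from 0 to 13.36 with the same maximum in all 6 libraries, were read as log2 values of RPKM + 1 that the authors normalized to equal quantiles; this is inferred, base 2 was assumed, and read depth cannot be recovered. Per the submitters' processing notes, reads were placed on hg19; the sources used here name no aligner, counter or annotation. Members and lists were chosen with earlier results of these data known. Genes with a mean of at least 1 RPKM (2 to the power of the value, minus 1) were tested, 10536 in all. Limma 3.58.1 in R 4.3.3 fitted 4 group means over the 6 libraries, with eBayes trend and 2 residual and 5.53 prior degrees of freedom, so a lone day 0 library is assumed to vary like the day 4 pairs. P-values are two-sided with Benjamini-Hochberg adjustment over all tested genes and a call under 0.05; ± gives limma standard errors. The fit was tested on simulated data in which each gene had the same spread in all libraries. That test cannot show whether a lone day 0 library varies like the day 4 pairs. Named besides the members are the hairpin targets, the tested genes of largest and smallest change in each of 12 related lists, and the 5 genes most correlated with the tested member of widest range; CD3E, COL1A2, TTC5, SCAPER and MAPRE2 were named after their values were seen. Titles' numbers were taken as replicates, but could number hairpins. Both day 0 libraries carry the number 2, so day 4 libraries numbered 1 have no day 0 library of their own number. Alternatives were 2 other pseudocounts, 2 other filters, median-ratio scaling, no trend, 1 line alone, other day 0 controls, a replicate block and leaving out each day 4 library. Promoters are from RefSeq (GRCh38.p14), all 10 members matched; transcripts are from GENCODE. Some sequences and 1 gene that these rules select are not reported here.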

Additional observations from a re-analysis of the deposited data

Results flagged for a closer look

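TUBA1A stood out because the lines moved in opposite directions. It was higher in both induced shTP63 libraries (0.77 and 0.89 log2 units relative to day 0) and lower in both induced shSOX2 libraries (-1.13 and -0.39 relative to day 0). The shTP63 response minus the shSOX2 response was 1.59 ± 0.58 on the log2 scale (limma adjusted p = 0.995, from 0.785 to 0.999 over 11 alternatives), so the difference did not pass. The uninduced libraries themselves differed by -0.38 (shTP63 minus shSOX2), and 41.1% of the 50-base windows of TUBA1A occur in other genes, mainly TUBA1B. The part of either in the difference was not tested.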

How the results depend on the processing

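Of 450 member values under the alternatives, 435 kept their direction and their side of the threshold, 2 newly passed (MAPRE3, given above) and 13 turned sign. MAPRE1 turned in the shSOX2 line with both day 0 libraries as control (0.11), with the other line's (0.38) and without shSOX2 replicate 2 (0.09, against -0.41 without replicate 1), and in the shTP63 line with the other line's (-0.08). For the response difference, TUBB4B turned without shSOX2 replicate 2 (0.02) or shTP63 replicate 1 (0.05; range -0.12 to 0.05), TUBB without shSOX2 replicate 2 (0.04; range -0.22 to 0.04), and TUBB6 with a pseudocount of 5 (-0.03) and without shSOX2 replicate 1 (-0.26) or shTP63 replicate 2 (-0.25; range -0.26 to 0.31). Between induced lines, TUBA1C turned without shSOX2 replicate 1 (-0.05; range -0.05 to 0.76), and MAPRE1 without shSOX2 replicate 2 (-0.17) or shTP63 replicate 1 (-0.05; range -0.17 to 0.33). Counts of genes called by limma moved most. The shSOX2 count of 0 became 1 with a pseudocount of 5, 1090 without a filter, 11 with the line alone, 2 with both day 0 libraries, 4 with the other line's and 0 to 11 leaving out 1 library. The shTP63 count of 2 became 5 with a pseudocount of 0.1, 37 without a filter, 1 at a minimum of 5 RPKM, 0 with the line alone, 291 with both day 0 libraries, 49 with the other line's and 0 to 80 leaving out 1 library. The response difference gave 1193 without a filter and 0 to 5 leaving out 1 library. The 80 between induced lines became 30 and 46 with pseudocounts of 5 and 0.1, 25 without a filter, 44 at a minimum of 5 RPKM and 0 to 324 leaving out 1 library. The genes added without a filter were mostly under the minimum level (1085 of 1090 in the shSOX2 line). The cause of the other shifts was not tested. The day 4 difference of replicate 1 minus replicate 2 was not shared between the lines (correlation -0.0738), and replicate number was left out of the main fit. That correlation cannot show whether a day 4 library pairs with the day 0 library of its line. With a replicate block the shTP63 count was 0, that between induced lines 18 and the members' shTP63 median -0.54. That median was -0.86 with both day 0 libraries, -0.99 with the other line's and -0.83 to -0.67 leaving out 1 library; the shSOX2 median ran from -1.13 to -0.69. Members higher in both induced shSOX2 libraries numbered 2 with the other line's day 0 library and 1 to 2 leaving out 1 library. Median-ratio scaling gave a shTP63 day 0 beta sum of 432 RPKM. The choice of the other line's day 0 library was made after seeing the data. With 1 day 0 library per line and no read counts, small differences cannot be resolved.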
